A study of Mus musculus with 2 samples.

Results

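Desaturases and elongases reshape the fatty acids that a cell makes or takes up, and 10 mouse genes of these families were followed through whole omentum. They were taken by gene symbol, paralog by paralog, and all 10 were found among the 24346 symbols of the expression tables. The genes were the stearoyl-CoA desaturases Scd1, Scd2 and Scd3, the fatty acid desaturases Fads1 and Fads2, and the elongases Elovl1, Elovl3, Elovl5, Elovl6 and Elovl7. The omentum is a sheet of visceral fat with milky spots, which are clusters of lymphocytes, macrophages and stromal cells. RNA was sequenced from whole omenta of 1 WT and 1 Postn-DTR library, both taken 5 days after diphtheria toxin (DT), so the WT control received the toxin too. Postn-DTR mice are heterozygotes of a C57BL/6 line in which the receptor for DT was placed in the first coding exon of Postn. Toxin therefore kills cells in which the Postn promoter is active, and this promoter is also used outside the omentum. Some Postn-DTR mice were reported to have an enlarged cecum after DT, possibly from stomach or colon damage. Any part of this in the values below was not tested. The age and sex of the mice, and whether a library held RNA of 1 mouse or of several, were not given in the sources used here.

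Fatty acid synthase releases mainly palmitate, a saturated fatty acid. ELOVL6 lengthens palmitate to stearate, and the SCD enzymes place a double bond in both, giving palmitoleate and oleate, the main monounsaturated fatty acids of stored triglyceride. FADS2, ELOVL5 and FADS1 act in turn on the essential fatty acids linoleate and alpha-linolenate, giving arachidonate and related polyunsaturated fatty acids of membranes. ELOVL1, ELOVL3 and ELOVL7 make very long chains for sphingolipids, waxes and skin lipids. In adipose tissue Scd1 and Elovl6 are known as genes of new fat synthesis that follow insulin and feeding.

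With 1 library for each genotype there was no spread between replicates, so nothing could be tested and every difference describes a pair of libraries. Levels are FPKM, fragments scaled to transcript length and library size, which can be compared between genes. A change is the difference in log2(FPKM + 1) of the Postn-DTR library from the WT library. It was compared over the 13127 genes whose mean FPKM reached 1, and 2-fold was the line for calling a gene lower or higher. Of these genes, 410 (3.12%) were at least 2-fold lower and 509 (3.88%) at least 2-fold higher, and the median change was 0.02. Higher genes were 55.4% of the changed ones, a share that became 27.8% when acinar genes were removed and totals made equal, and 86.9% when the libraries were scaled on adipocyte genes. The summed FPKM of all genes was 542190 in WT and 671882 in Postn-DTR. Acinar genes made up 12314 and 20.4 of it, so the setting of equal totals without acinar genes mostly evens out the unequal sums. Library depth was estimated from low values at about 23250000 fragments in WT and 24100000 in Postn-DTR, which gave approximate read numbers. An interval printed beside a ratio is the exact 95% interval from those reads, and it covers counting error only.

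The targeted gene, Postn, had 58.3 FPKM in WT against 16.2 under the Postn-DTR label, a change of -1.79. Adipocyte genes were abundant in both libraries, with Adipoq at 955.2 and 635.9 and Fabp4 at 4879 and 6519. Hepatocytes also express Scd1, and the 5 hepatocyte genes were near 0, with summed FPKM of 3.57 and 2.32, Fabp1 at 0 in both libraries and 1 of the 5 above the expression minimum. All 7 housekeeping genes stayed within 2-fold, with a median change of 0.05. Pancreatic acinar genes differed most between the libraries, with a summed FPKM of 12314 against 20.4. All 24 acinar genes compared were at least 2-fold lower.

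Of the 10 desaturase and elongase genes, 7 passed the expression minimum, and 2 of these 7, Scd1 and Elovl6, were at least 2-fold lower, beside 3.12% of all genes compared. None of the 7 was at least 2-fold higher, beside 3.88% of all genes. The other 5 stayed within 2-fold, with changes from -0.96 for Scd2 to 0.02 for Elovl1. Scd2 and Fads2 (-0.82) still lay under the 5th percentile of all genes compared, -0.79. The median change of the 7 was -0.82, against 0.02 for all genes compared. With no minimum the median of all 10 was -0.26, and with the libraries scaled on adipocyte genes that of the 7 was -0.37, against 0.44 for all genes. Scd3, Elovl3 and Elovl7 were under the minimum and are described by their reads. The summed FPKM of the 10 genes was 3499 in WT, or 0.645% of all FPKM, and 531.5 in Postn-DTR, or 0.0791%. Most of this sum was Scd1, and without it the sums were 331.1 and 223.2. In whole tissue, fewer adipocytes cannot be told apart from less RNA per adipocyte.

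**Figure D1:**
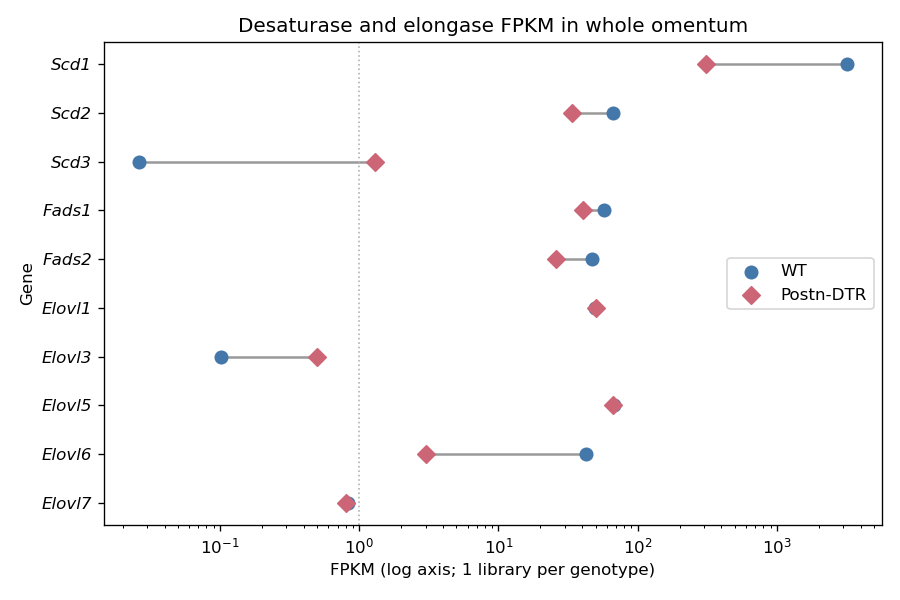
FPKM of the 10 genes on a log axis, with WT as circles and Postn-DTR as diamonds, 1 library each, and a dotted line at an FPKM of 1. Scd1 (3168 and 308.2) and Elovl6 (42.8 and 2.996) lie far to the left in Postn-DTR, Scd3 and Elovl3 lie to the right from a very low WT level, and the symbols of Elovl1, Elovl5 and Elovl7 nearly cover each other.

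Scd1 encodes the main stearoyl-CoA desaturase of adipocytes. Its FPKM was 3168 in the WT library and 308.2 in the Postn-DTR library, which is 10.3-fold lower (interval 10.2 to 10.4). Its change was -3.36, the 43rd lowest of the 13127 genes, with many acinar genes lower still. Scd1 was the 9th most abundant transcript in WT and the 286th in Postn-DTR. Its share of all FPKM, whose sum was larger in Postn-DTR, went from 0.584% to 0.0459%. The gene (ENSMUSG00000037071) lies on chromosome 19, 44394450 to 44407709 on the minus strand of GRCm38. Under the 8 other settings of pseudocount, filter and scaling the change of Scd1 ranged from -3.70 to -2.89, so it stayed more than 2-fold lower in each.

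Scd2, a paralog known from brain and newborn skin, had FPKM of 66.3 (WT) and 33.7 (Postn-DTR). The ratio was 1.97 (interval 1.90 to 2.05), and the change of -0.96 lay just short of the 2-fold line. Scd2 was past that line in 2 of the other settings, at -1.03 with the 75th percentiles made equal and at -1.29 with equal totals without acinar genes. Scd1 was 47.8 times as abundant as Scd2 in WT and 9.16 times in Postn-DTR. This ratio is taken within a library and does not depend on how the libraries are scaled.

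Scd3, a desaturase known from sebaceous glands of the skin, went the other way. Its FPKM was 0.0263 in WT, about 2 reads, and 1.295 in Postn-DTR, about 102 reads. The ratio of the libraries was 49.3, with a wide interval of 13.3 to 412 because the WT value rests on so few reads. On the log2(FPKM + 1) scale the change was 1.16. A pseudocount of 0.1 made it 3.47, and one of 5 made it 0.32. The mean FPKM of Scd3 was under the minimum, so it was not among the genes compared. Scd4, the remaining mouse paralog and not one of the 10 genes, was at 0.194 and 0.130, about 14 and 9.7 reads.

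The Scd genes are close copies, which bears on a transcript as rare as Scd3. Over the coding sequence Scd1 and Scd3 were 90.4% identical, Scd1 and Scd2 89.6%, and Scd2 and Scd3 88.0%. Of the 50-base words of the Scd3 transcript, 4.85% were also in Scd1. The longest run that the coding sequences of Scd1 and Scd3 share without a difference was 185 bases, and it is shown because a read inside it cannot be assigned to either gene. Positions count from 1 at the first base of the start codon, and the bases in capitals come from exon 5, those before them from exon 4. In Scd1 the run covers coding positions 463 to 647, at chr19:44401693-44401865 and chr19:44400363-44400374 on the minus strand of GRCm38. In Scd3 it covers positions 475 to 659, at chr19:44235804-44235976 and chr19:44238376-44238387 on the plus strand.
Scd1 and Scd3 shared coding run: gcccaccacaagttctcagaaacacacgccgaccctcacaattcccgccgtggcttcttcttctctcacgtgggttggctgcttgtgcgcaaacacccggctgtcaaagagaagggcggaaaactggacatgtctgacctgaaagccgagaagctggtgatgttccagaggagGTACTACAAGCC
In WT, Scd3 had about 2 reads and Scd1 about 340436, and in Postn-DTR they had about 102 and 34335. The part of shared reads in the Scd3 values was not tested. How the counting step treated reads that match both genes was not given in the sources used here.

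FADS2 catalyses the first step on linoleate, and Fads2 had FPKM of 46.9 (WT) and 26.1 (Postn-DTR). Its ratio was 1.80-fold (interval 1.70 to 1.90) and its change -0.82. FADS1 acts later, on the elongated product, and Fads1 was at 57.2 and 40.6, a ratio of 1.41-fold (interval 1.34 to 1.47) and a change of -0.48. Both genes were below WT under all 8 other settings, but Fads1 came to -0.03 and Fads2 to -0.37 when the libraries were scaled on adipocyte genes. Fads2 passed the 2-fold line in 1 setting, equal totals without acinar genes, at -1.15. Fads3, another gene of the same cluster that was not one of the 10, was at 59.4 and 48.5, a change of -0.29. The level of Fads1 over that of Fads2 was 1.22 in WT and 1.56 in Postn-DTR.

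The elongases differed among themselves. ELOVL6 works on palmitate, the product of fatty acid synthase, and the FPKM of Elovl6 was 42.8 in WT against 2.996 in Postn-DTR. This was 14.3-fold lower (interval 12.9 to 15.8), from about 5719 reads to about 415. The change of -3.46 was the 40th lowest of all genes compared, again with many acinar genes lower still. It ranged from -3.79 to -2.58 under the other settings. The gene (ENSMUSG00000041220) lies on chromosome 3, 129532386 to 129638495 on the plus strand. Elovl5, which encodes the elongase of polyunsaturated fatty acids, was at 67.1 in the WT and 66.7 in the Postn-DTR library. The ratio of Postn-DTR to WT was 0.993 (interval 0.950 to 1.04), and its change of -0.01 became 0.45 when the libraries were scaled on adipocyte genes and stayed under 0 in the other 7 settings. Elovl5 was 1.57 times as abundant as Elovl6 in WT and 22.2 times in Postn-DTR.

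Elovl1, which encodes an elongase of saturated very long chains used in sphingolipids, was at 49.8 and 50.6. Its change of 0.02 had no stable direction, turning to -0.05 with the 75th percentiles made equal and to -0.31 with equal totals without acinar genes. Elovl7 was at 0.836 and 0.801, or about 73.9 and 73.4 reads, with a ratio of 0.957 (interval 0.679 to 1.33). Its change of -0.03 likewise became 0.20 when the libraries were scaled on adipocyte genes. Elovl3 is an elongase induced by cold in brown fat. It was at 0.102 (WT) and 0.495 (Postn-DTR), about 4.0 and 19.9 reads, and the ratio of 4.83 had an interval of 1.62 to 19.4. Of 5 genes of thermogenic adipocytes 2 were compared and 1 was at least 2-fold lower. Ucp1 was under the minimum, at 0.0595 and 0.288, or about 2.0 and 9.9 reads, while Cox8b fell from 113.7 to 31.8. Elovl2 (0.0118 and 0.0457) and Elovl4 (0.0451 and 0.102), which were not among the 10 genes, were close to 0 in both libraries. Of the 5 paralogs outside the 10 genes, 2 were compared (Fads3 and Fads6), both within 2-fold, with a median of -0.10.

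**Figure D2:**
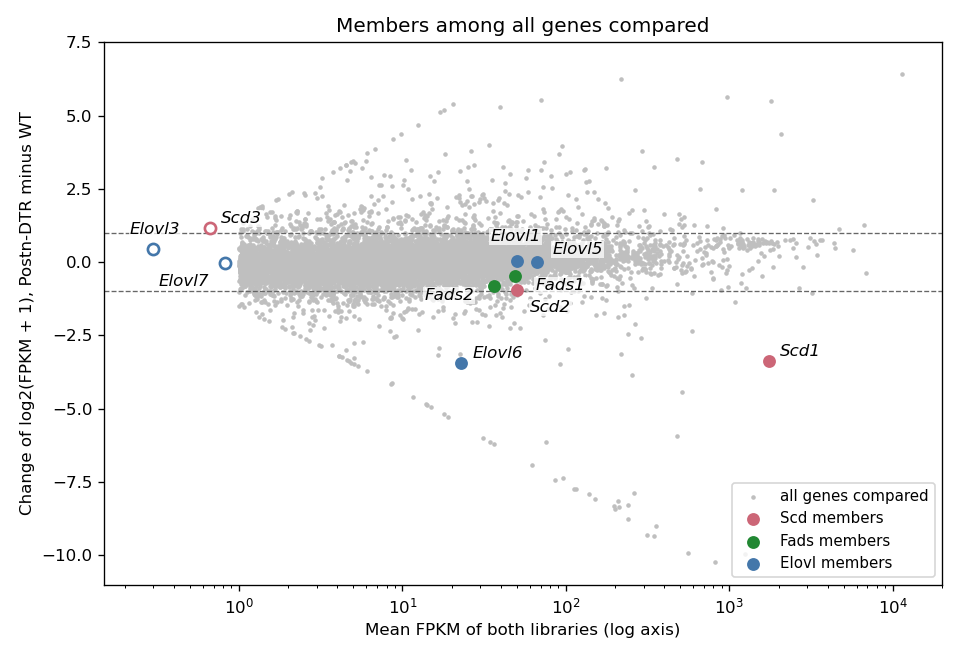
Mean FPKM of both libraries on a log axis against the change on the log2(FPKM + 1) scale (Postn-DTR less WT) for the 13127 genes compared in grey and the 10 genes in colour by family, with 2-fold lines dashed and open circles for the 3 genes under the expression minimum. Scd1 at -3.36 and Elovl6 at -3.46 lie far under the grey band, and Scd2, Fads1, Fads2, Elovl1 and Elovl5 lie inside the 2-fold lines.

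The make-up of each family followed from these values. Among the 3 Scd genes, Scd1 was 97.9% of the summed FPKM in WT and 89.8% in Postn-DTR, and Scd2 was 2.05% and 9.81%. Among the 5 elongases, Elovl6 made up 26.7% of the sum in WT and 2.46% in Postn-DTR, while Elovl5 went from 41.8% to 54.8% and Elovl1 from 31.0% to 41.6%. Fads1 was 54.95% of the sum of both Fads genes in WT and 60.9% in Postn-DTR. Counting Fads3 and Fads6 as well, Fads1 was 34.6% and 34.7% of the Fads sum, and Fads3 was 36.0% and 41.4%. The other paralogs were too low to move the Scd and Elovl shares by as much as 0.1 percentage points.

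**Figure D3:**
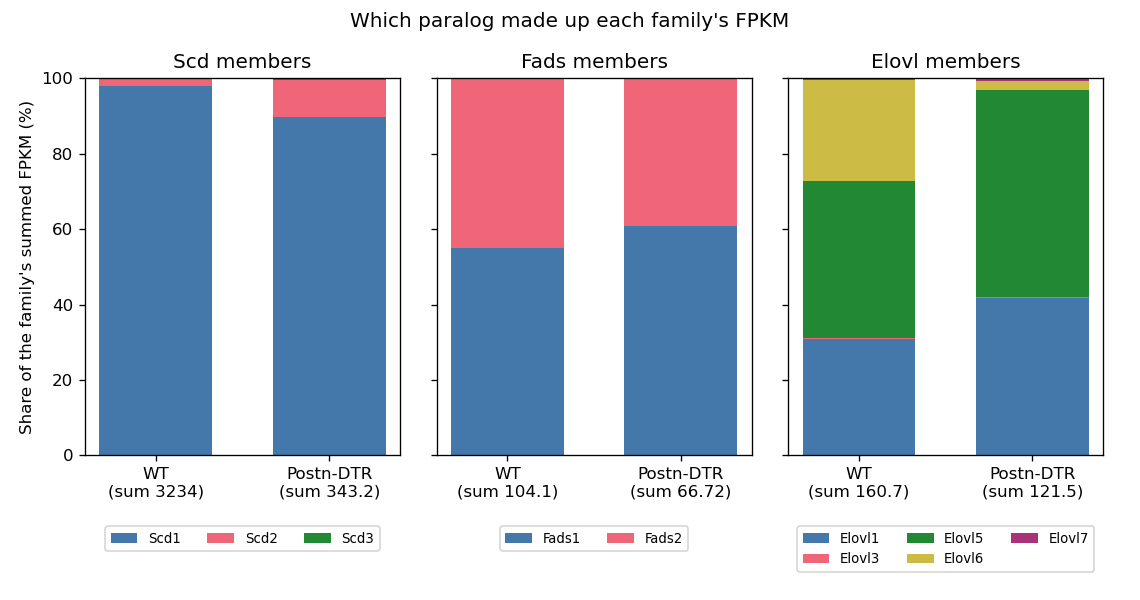
Share of each family's summed FPKM taken by each of its members, in percent, with a bar for each library and the summed FPKM under it. Scd1 fills most of both Scd bars, and the Elovl6 segment shrinks from 26.7% of the WT bar to 2.46% of the Postn-DTR bar.

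In order of level, WT ran from Scd1 through Elovl5, Scd2, Fads1, Elovl1, Fads2 and Elovl6 to Elovl7, Elovl3 and Scd3. In Postn-DTR the order was Scd1, Elovl5, Elovl1, Fads1, Scd2, Fads2, Elovl6, Scd3, Elovl7 and Elovl3. Scd1 and Elovl5 thus kept the first places and Scd3 left the last. Neighbours in this order such as Elovl5 (67.1) and Scd2 (66.3) in WT could not be told apart, since no replicate spread was measured. Among genes within 2-fold of its mean FPKM, none of 106 came closer to the change of Scd1 than Gsn, which differed from it by 1.99 with values of 1566 and 605.1. Car3 (4329 and 2109) and H2-Ab1 (1177 and 602.4) followed, differing by 2.32 and 2.39. None of the 106 thus had a change near that of Scd1. For Elovl6 there were 4641 such genes, and the closest were Rgs5 (30.6 and 2.56), Aldh1a7 (41.0 and 3.75) and Fcer2a (30.5 and 3.10). The likeness of these genes to Elovl6 rests on 2 libraries.

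Of the 10 genes, 6 lie on chromosome 19, in a pair of clusters and at Elovl3. The Scd cluster spans 44203288 to 44407709 with Scd3, Scd2, Scd4 and Scd1 in that order, and the span of Scd3 lies inside that of Pkd2l1, which was listed at 0 in WT and 0.0133 in Postn-DTR. Genes flanking the cluster stayed within 2-fold: Bloc1s2 was at 25.9 and 30.3, Cwf19l1 at 4.47 and 4.26, and Sec31b at 2.94 and 2.53. Next to the Fads cluster, which spans 10040855 to 10196874, Fen1 was at 9.22 and 9.95 and Tmem258 at 157.9 and 209.9. On the other side, the adjacent Rab3il1 was at 23.7 and 20.6, a change of -0.19. Best1, beyond it, went from 1.96 to 5.65, a change of 1.17. Within the Scd cluster the genes compared, Scd1 and Scd2, had changes of -3.36 and -0.96, beside flanking genes between -0.16 and 0.22. Scd3, at 1.16, was under the expression minimum and had about 2 reads in WT.

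Promoter sequence was taken from RefSeq (GRCm38.p6), where 6 of the 10 genes had an entry in the table used, and no entry was found for Scd1, Scd2, Fads1 and Elovl3. The 3 stretches below end at the base before the earlier of the RefSeq and GENCODE starts. They are shown because Elovl6 was past 2-fold, Elovl5 was not, and Scd3 was the desaturase with more reads in Postn-DTR. Capitals mark the motifs searched, on either strand, within 250 bases before the RefSeq start: CACGTG (E-box), CCAAT (NF-Y box), GGGCGG (GC box) and TCACNCCAC (sterol regulatory element). The first lies at chr3:129532136-129532354, the next at chr9:77917115-77917363 and the last at chr19:44203038-44203268, all on the plus strand.
Elovl6: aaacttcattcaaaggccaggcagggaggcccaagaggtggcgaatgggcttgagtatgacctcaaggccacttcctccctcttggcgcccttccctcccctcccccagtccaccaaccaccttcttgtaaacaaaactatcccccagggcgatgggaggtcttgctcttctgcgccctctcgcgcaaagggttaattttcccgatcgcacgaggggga
Elovl5: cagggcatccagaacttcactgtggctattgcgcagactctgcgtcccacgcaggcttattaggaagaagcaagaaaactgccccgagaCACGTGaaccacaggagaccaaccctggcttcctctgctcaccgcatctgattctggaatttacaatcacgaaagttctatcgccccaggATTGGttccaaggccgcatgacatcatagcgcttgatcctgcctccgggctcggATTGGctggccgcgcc
Scd3: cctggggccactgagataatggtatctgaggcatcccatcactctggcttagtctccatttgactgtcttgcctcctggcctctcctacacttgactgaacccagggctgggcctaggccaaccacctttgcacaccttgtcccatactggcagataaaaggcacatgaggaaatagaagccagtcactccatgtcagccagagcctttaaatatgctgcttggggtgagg
The Elovl5 window held an E-box 161 bases before the start and NF-Y boxes at 71 and 17 bases, and the Elovl6 and Scd3 windows held none of the 4 motifs. Over all 7 windows of the 6 genes, 4 had a GC box, 2 an NF-Y box, 1 an E-box and 0 a sterol regulatory element, and in Elovl1 an NF-Y box overlapped a GC box. Of 32851 promoter windows of this length, 32.7% held a GC box, 33.8% an NF-Y box, 6.02% an E-box and 1.05% a sterol regulatory element. Both Elovl1 windows lay inside the RefSeq span of the gene, which begins at 118426874. The Elovl7 window, 108214154 to 108214403, ran past the first base of its gene, 108214326. A match or its lack says only which letters are in the window.

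The genes upstream of the desaturases and elongases were compared next. Of 8 genes of de novo fatty acid synthesis, 7 were at least 2-fold lower and 0 higher, with a median change of -2.62. Fasn, which encodes fatty acid synthase, fell from 977.9 to 44.0. Me1, a source of NADPH, fell from 473.0 to 31.6, and Acss2, which activates acetate, from 169.7 to 14.5. Their ranks from the lowest change were 32, 35 and 39, next to the 40th of Elovl6. Acly, Acaca, Slc25a1 and Thrsp were lower too, with changes from -2.66 to -2.34. The exception was Acacb, whose product makes malonyl-CoA at the mitochondrion, at 17.9 and 13.9. Relative to Fasn, Scd1 was 3.24 times as abundant in WT and 7.005 times in Postn-DTR, and Elovl6 0.0438 and 0.0681 times.

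The ELOVL enzyme carries out the first step of each elongation cycle. None of the 6 genes of the later steps was 2-fold lower or higher, and their median change was -0.18. The last step is the reduction by TECR, and Tecr went from 265.4 to 145.8 with a change of -0.86. For the ketoacyl reductase, Hsd17b12 was at 91.7 and 54.5, a change of -0.74. Among the dehydratases, Hacd3 was at 25.1 and 36.9 with a change of 0.54. Desaturases take electrons through cytochrome b5. Of the 5 such genes compared 0 were 2-fold lower or higher, with a median of -0.02. Cyb5b was at 75.1 and 38.7, a change of -0.94, and Cyb5a at 346.4 and 491.9, a change of 0.50. Cyb5r3, the reductase, was at 169.6 and 167.4.

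Regulators and users of the products were also listed. Of 9 lipogenic regulators compared, 2 were at least 2-fold lower, 0 were higher and the median change was -0.28. Insig1, whose product holds SREBP in the endoplasmic reticulum, fell from 85.2 to 26.0. Pparg, the adipogenic nuclear receptor, fell from 59.1 to 27.3. Srebf1, which encodes the lipogenic SREBP, was at 72.3 and 44.95, a change of -0.67, and Mlxipl, which encodes ChREBP, at 42.9 and 44.4. Of 7 genes that use the products, 2 were at least 2-fold lower and 0 higher, and the median was 0.15. They were Dgat2, which makes triglyceride from newly made fatty acids (390.8 and 43.2), and Agpat2, an earlier step (263.3 and 78.3). Dgat1 was at 92.9 and 66.3, and Lpcat3, which puts polyunsaturated chains into phospholipids, at 41.0 and 45.7.

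Lists further from new fat synthesis held few changed genes. None of 4 acyl-CoA synthetases compared was 2-fold lower or higher, with a median of -0.24 and Acsl1 at 207.7 and 122.7. The same held for 7 genes of the peroxisomal step that completes docosahexaenoate, with a median of -0.10. Of 6 sphingolipid desaturases and ceramide synthases, 1 was higher and 0 lower, with a median of 0.23. This was Cers6, at 4.58 and 10.2 with a change of 1.01, only just past the line. Cers2, which uses very long chains as ELOVL1 makes them, was at 91.7 and 115.8.

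**Figure D4:**
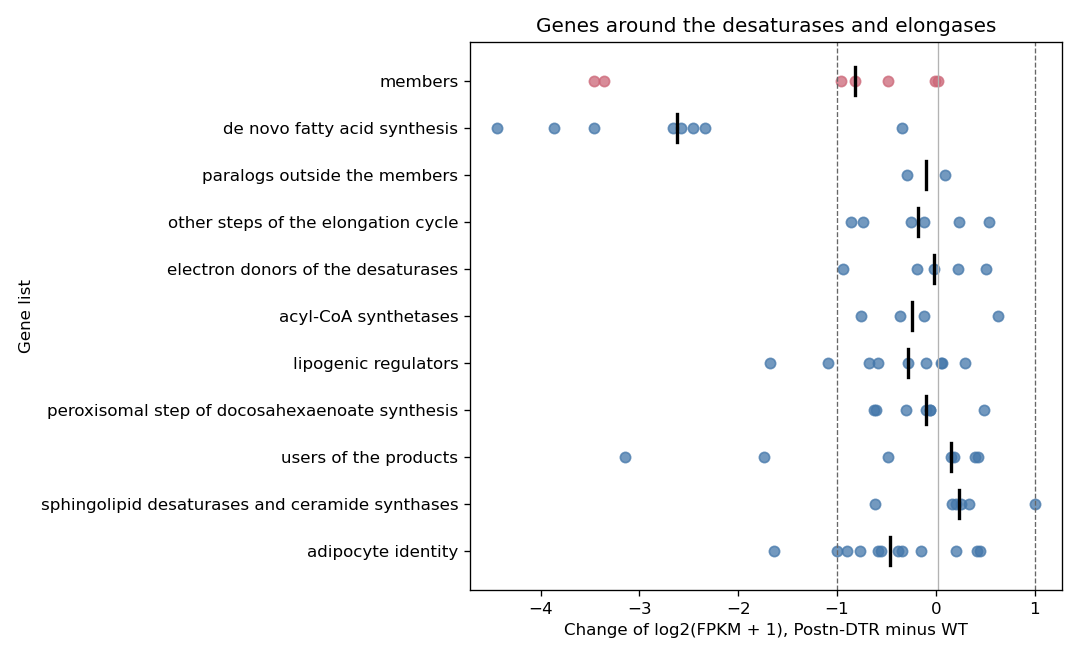
Change on the log2(FPKM + 1) scale (Postn-DTR less WT) for each gene compared (points) in the desaturase and elongase set and in 10 related lists, with the median of a list as a black bar and 2-fold lines dashed. Points of de novo fatty acid synthesis lie mostly left of the 2-fold line (median -2.62), as do Scd1 and Elovl6, and those of the elongation cycle and the electron donors lie between the lines.

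Genes of the cell types present were counted last. Of 12 adipocyte identity genes, 1 was at least 2-fold lower (Slc2a4, the insulin-regulated glucose transporter, 44.8 and 13.7), 0 were higher and the median change was -0.46. Their summed FPKM was 16653 in WT and 15562 in Postn-DTR, and none was at 0. Scd1 was 3.32 times as abundant as Adipoq in WT and 0.485 times in Postn-DTR, and Elovl6 0.0449 and 0.00471 times. With the libraries scaled so that the adipocyte list had a median change of 0, Scd1 was still at -2.89 and Elovl6 at -3.09, whereas Scd2 came to -0.50.

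Markers of other cells moved between the libraries as well. All 6 macrophage genes had changes over 0 and 3 were at least 2-fold higher (Itgam, Adgre1 and Cd68), with sums of 2836 and 4576. Of 5 T cell genes 3 were at least 2-fold lower (Cd4, Cd3e and Lck, sums 76.4 and 34.1). The same held for 1 of 5 B cell genes (Ms4a1, sums 450.8 and 328.9), 1 of 5 fibroblast genes (Dpt, sums 2356 and 1465) and 1 of 5 mesothelial genes (Lrrn4, sums 402.9 and 417.4). None of 5 endothelial genes was (220.8 and 214.0). The mesothelial genes did not move together: 2 had changes under 0 and 3 over 0, with Upk1b at 39.4 and 75.3 and Msln at 37.2 and 67.9. No gene of these lists was at 0, and 8 of the 26 acinar genes were at 0 in Postn-DTR and 1 in WT. The part of these cells in the values of the desaturases and elongases was not tested.

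**Figure D5:**
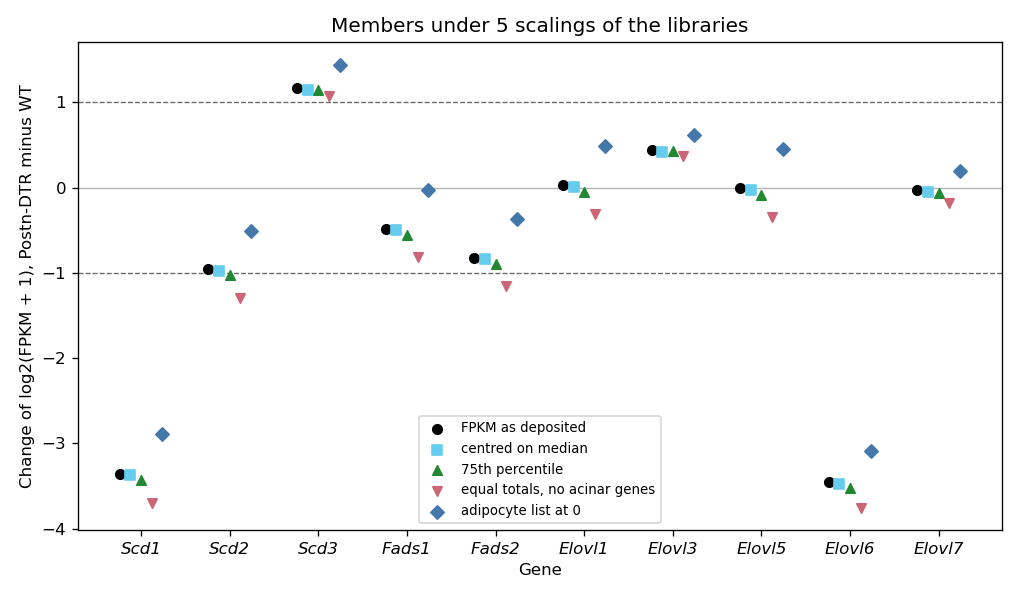
Change on the log2(FPKM + 1) scale (Postn-DTR less WT) of the 10 genes under 5 scalings of the libraries, with 2-fold lines dashed. Scd1 and Elovl6 stay under the lower line in all 5, Scd2 lies on either side of it (-1.29 to -0.50), and Elovl1, Elovl5 and Elovl7 lie on both sides of 0.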

How the data were processed

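RNA-seq of whole omenta was analysed from 1 WT and 1 Postn-DTR library, both 5 days after DT, grouped by their genotype labels. Per the labels, the RNA came from a miRNeasy extraction and the libraries from a stranded TruSeq mRNA kit. The authors deposited FPKM, with 1 value per gene symbol and library. The submitters' processing notes list TopHat2 2.1.1, Bowtie2 2.2.8, SAMtools 0.1.18, Cuffdiff 2.2.1 and the build mm10. The annotation and the handling of reads with several matches were not given in the sources used here.

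Changes were computed in Python 3.11.15 (numpy 2.4.6, pandas 2.3.3) with a pseudocount of 1 over all genes whose mean FPKM reached 1, and counted at 2-fold. With 1 library per genotype no test was run. Depth was found as the denominator and length reduction (210 bp in both libraries) that put FPKM under 0.15 of genes with 1 RefSeq-linked GENCODE M21 transcript closest to whole reads. Of these values 79.0% in WT and 77.9% in Postn-DTR lay within 0.1 of a whole number. An FPKM of 1 in a 2 kb transcript was about 41.6 and 43.1 reads. For genes with several transcripts, such as Elovl1, reads were estimated from the longest. Ratio intervals are exact conditional binomial (Clopper-Pearson) intervals at 95%, from rounded reads (scipy 1.17.1). The steps were tested on simulated data. Positions and promoters are from RefSeq GRCm38.p6, coding sequences from GENCODE M21 on GRCm38, which is the same assembly as mm10, and identities from global alignment (biopython 1.88).

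The 10 genes and 24 gene lists were chosen with earlier results of these data known. Text names the 10 genes, genes of the pathway lists at least 2-fold changed with up to 3 others per list, Postn, the 3 genes closest in change to each gene past 2-fold, and, chosen after their values were seen, genomic neighbours of the clusters and single markers of cell types. Cell type lists are given by counts and summed FPKM. Alternatives were other pseudocounts, minimums, scalings and folds. The values of 1 gene of these lists are not reported here.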

Additional observations from a re-analysis of the deposited data

How the results depend on the processing

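Scd1 and Elovl6 were past the fold in use under all 10 alternatives of pseudocount, minimum, scaling and fold. The number of lower genes among the desaturases and elongases was 2, beside 410 of all 13127 genes compared. It was 3 with the 75th percentiles made equal (Scd2 added), beside 480 of 13131 genes. At equal totals without acinar genes it was 4, beside 794 of 13153 genes. At 1.5-fold it was also 4, beside 1160 of 13127 genes, with Scd2 and Fads2 added in both settings. The number of higher ones was 0, and 1 (Scd3) with no minimum FPKM, beside 526 of 17969 genes. The median change of the desaturases and elongases, -0.82, became -0.37 with adipocyte scaling and -1.15 at equal totals without acinar genes. At equal totals the median of all genes moved by -0.30. With no minimum FPKM, which brings in Scd3, Elovl3 and Elovl7, the median of the 10 genes was -0.26. Scaling on the adipocyte list moved the median of all genes by 0.42. Over all genes, the 410 lower became 643 with a pseudocount of 0.1, 168 with a pseudocount of 5, 173 with a mean FPKM of at least 10, 794 at equal totals, 209 with adipocyte scaling, 1160 at 1.5-fold and 153 at 3-fold. The 509 higher became 287 with a pseudocount of 5, 303 with a mean FPKM of at least 10, 306 at equal totals, 1384 with adipocyte scaling, 1294 at 1.5-fold and 199 at 3-fold. Counted with all paralogs, the share of Fads1 in the Fads sum went from 54.95% to 34.6% in WT and from 60.9% to 34.7% in Postn-DTR, and that of Fads2 from 45.05% to 28.4% and from 39.1% to 22.3%. Stricter filters and folds lower a count by construction. No replicate could be left out and no paired analysis was possible because each genotype had 1 library. Read numbers are estimates, and those of Scd3 and Elovl3 in WT, about 2 and 4.0, limit what their ratios can show.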
